A study of Bos taurus with 18 samples.

Results

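Plasma was taken from the jugular vein of 3 Japanese Black steers at about 30 months of age, and the miRNAs of each plasma sample were sequenced from 2 fractions. The exosomal fraction (EX) holds the RNA inside exosomes, small vesicles released by cells, and the non-exosomal fraction (FC) holds the free-circulating RNA left outside them. Both were purified with 1 commercial kit from 1 mL of the same plasma. The 6 libraries of this age, 3 EX and 3 FC, are part of 18 libraries of the series, which also holds EX and FC libraries of 20 and 25 months. The 6 libraries are all those labelled 30 months. All animals were steers, and no treatment is stated. The EX and FC libraries with the same replicate number were taken as one plasma sample, although the labels and methods used here do not tie the number to a steer, and plasma sample 1, 2 or 3 below means that number. A miRNA entered the comparison when its CPM-normalized count (CPM, the count scaled to the library total) was above 5 in at least 3 of the 6 libraries, and 300 of the 1071 miRNAs of the table did so.

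A miRNA is a short RNA cut from a hairpin precursor and loaded into an Argonaute protein, which it guides to messenger RNAs through its seed, bases 2 to 8 from the 5′ end. One precursor can give a mature miRNA from each of its arms, named -5p and -3p. In plasma, miRNAs are protected from nucleases either inside vesicles or bound to Argonaute and other proteins outside them, so each fraction is a mixture released by blood cells, vessel wall, liver, gut and other tissues. Which cells released a given miRNA cannot be read from plasma libraries. The tables hold miRNAs only, so protein markers of exosomes could not be checked.

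The EX libraries held 1988408, 991354 and 1082798 counts (plasma samples 1, 2 and 3), against 4871908, 3615234 and 3803203 in FC. The counts in EX came in multiples: the most common whole count was 84, 76 and 41, against 20, 30 and 20 in FC. Taken as the copies of 1 molecule, these counts imply 23672, 13044 and 26410 molecules in EX and 243595, 120508 and 190160 in FC. One implied molecule was then worth 42.2, 76.7 and 37.9 CPM in EX and only 4.11, 8.30 and 5.26 CPM in FC. In FC, 131 of the 300 miRNAs had a mean below 76.7 CPM, the largest value of 1 molecule in EX. Of the 300, 195 had a count above 0 in all 3 EX libraries, 49 were at 0 in 1, 36 in 2 and 20 in all 3, whereas 286 had a count in all 3 FC libraries. The filter was passed through all 6 libraries by 174 miRNAs, through FC alone by 22 and through EX alone by 2. The miRNAs that passed through 1 fraction alone are high there by the filter itself.

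In the EX libraries 3 rows of the tables stand apart. In 7 of the 9 EX libraries of the series, including all 3 of 30 months, the row of *bta-miR-194* is at 0 while those of *bta-miR-181b* and *bta-miR-194b* are high. At 30 months the row of *bta-miR-181b* held 6859, 13829 and 10326 CPM in EX and 114, 87.8 and 97.5 CPM in FC. The row of *bta-miR-194* held 0 CPM in each EX library and 10799, 26514 and 13897 CPM in FC. The row of *bta-miR-194b* held 145, 168 and 126 CPM in EX and 0 CPM in each FC library. The other 2 EX libraries of the series, replicates 1 and 2 of 20 months, and all 9 FC libraries do not show this pattern. No other row separated those 2 EX libraries from the other EX libraries of 20 and 25 months by more than 1.29 on the log2(CPM + 5) scale, against 3.22 or more for these 3. In these 7 libraries the row of *bta-miR-181b* stands near the level that the row of *bta-miR-194* has elsewhere, so the rows may be misassigned, and the values of these 3 rows may belong to another of the 3 miRNAs. The cause was not tested. The number of DE-miRNAs, defined below, is therefore also given without these rows.

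The sequences of the miRNAs on which the comparison turns are shown with the seed in capitals, as the count table gives them. Those higher in EX come first, and *candidate-miR* is the name used here for a sequence predicted with miRDeep2 in the study, with the number it has in the table under another prefix. The study matched *candidate-miR-3* and *candidate-miR-30* to known miRNAs, and both stay among the candidates here.
*bta-miR-12034*: cCCCGGGGagcccggcggu
*candidate-miR-40*: gUCCGGUUguucuucucu
*candidate-miR-38*: aUAAUGAAcaauaaaacu
*bta-miR-193a-5p*: uGGGUCUUugcgggcgagauga
*bta-miR-320a*: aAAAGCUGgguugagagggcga
*bta-miR-126-3p*: cGUACCGUgaguaauaaugcg
The miRNAs higher in FC follow, together with *bta-miR-192* and *bta-miR-30d*, which share the seeds of *bta-miR-215* and *bta-miR-30e-5p*.
*bta-miR-223*: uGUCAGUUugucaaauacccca
*bta-miR-215*: aUGACCUAugaauugacagaca
*bta-miR-192*: cUGACCUAugaauugacagccag
*bta-miR-148b*: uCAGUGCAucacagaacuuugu
*bta-miR-30e-5p*: uGUAAACAuccuugacuggaagcu
*bta-miR-30d*: uGUAAACAuccccgacuggaagcu
*bta-miR-143*: uGAGAUGAagcacuguagcucg
*bta-miR-126-5p*, from the other arm of the precursor of *bta-miR-126-3p*, and the miRNAs of the 3 rows are shown because their values are set against each other.
*bta-miR-126-5p*: cAUUAUUAcuuuugguacgcg
*bta-miR-194*: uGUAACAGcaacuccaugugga
*bta-miR-194b*: cACAUGGAguugcuguuaca
*bta-miR-181b*: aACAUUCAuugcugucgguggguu
*bta-miR-215* differs from *bta-miR-192* at 2 bases when aligned from the 5′ end, so reads can be shared between them, and their counts are not all whole numbers. The sequence of *bta-miR-194b* is the reverse complement of bases 1 to 20 of *bta-miR-194*. None of the 6 miRNAs higher in EX shared its seed with another tested miRNA, whereas *bta-miR-215*, *bta-miR-148b* and *bta-miR-30e-5p* did.

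The most abundant miRNAs were largely shared by the fractions. The leading 10 by mean CPM took up 54.9 ± 1.32% of the EX libraries and 57.9 ± 2.31% of the FC libraries (mean ± SD, n = 3), and 7 were in both lists. *bta-miR-16b*, a cell cycle regulator also abundant in red cells, led both with 13.1% of EX and 11.7% of FC. *bta-miR-21-5p*, which most tissues express, held 8.99% and 11.1%. *bta-miR-192* of gut and liver held 7.62% and 10.9%, and the hepatocyte miRNA *bta-miR-122* held 8.15% and 6.49%. *bta-let-7b*, *bta-miR-25* and *bta-miR-93* were among the leading 10 only in EX, whereas *bta-miR-215*, *bta-miR-142-5p* and *bta-miR-30e-5p* were so only in FC.

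The EX libraries differed from each other more than the FC libraries did. Over 297 tested miRNAs, leaving out the 3 rows, the root mean square difference of log2(CPM + 5), scaled by the trimmed mean of M-values (TMM), averaged 1.76 between EX libraries (range 1.56 to 1.89) and 0.756 between FC libraries (0.656 to 0.821). Within a plasma sample, between its EX and its FC library, it was 1.58 (1.36 to 1.86). Between EX and FC libraries of different plasma samples it was 1.61 (1.48 to 1.84), almost the same. Within its own plasma, sample 2 lay within the range between EX libraries and the other 2 below it. Fewer molecules and a different composition of EX cannot be told apart in this measure.

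The comparison of EX with FC asked which miRNAs differ in relative abundance between the fractions of the same plasma. A miRNA was taken as differing (DE-miRNA) at an FDR below 0.05 and a |log2 fold change| above 1, in a quasi-likelihood fit of the counts in edgeR with plasma sample as a block, TMM scaling and Benjamini-Hochberg adjustment over the 300 miRNAs. Fitted log2 fold changes are EX against FC, positive when EX was higher, and are given ± their standard error. With the shifted FC rows restored and the 3 rows as deposited, 13 of the 300 passed (4.33%), of which 7 were higher in EX (2.33%) and 6 higher in FC (2.0%). Without the 3 rows 11 passed, 6 higher in EX and 5 higher in FC, and all 11 were among the 13. At the FDR alone, 25 miRNAs passed (8.33%), 8 higher in EX (2.67%) and 17 higher in FC (5.67%), each in the same direction in all 3 plasma samples.

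The balance of the calls depended on the scaling, the test and the block. The TMM factors were 1.14, 1.11 and 1.08 in EX and 0.959, 0.881 and 0.867 in FC, so a fitted fold change lies below the ratio of the CPM values. The median log2 fold change of all tested miRNAs was −0.48 with TMM and −0.17 with library totals only, and with the latter 11 of 13 calls were higher in EX. With the likelihood ratio test 10 calls were higher in EX and 25 higher in FC. The split was 13 to 20 with DESeq2, 12 to 23 with limma on log2(CPM + 1) and 10 to 33 in a fit of all 18 libraries. Without the block of plasma sample 35 miRNAs passed, 8 higher in EX and 27 higher in FC, and without plasma sample 2 only 7 passed.

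In the main fit the DE-miRNAs were abundant ones. Of the 169 miRNAs whose FC mean was at or above 76.7 CPM, 24 passed the FDR and 12 were DE-miRNAs, against 1 of the 131 below it, which was *bta-miR-12034*. The median log2 fold change was −0.24 in the former and −1.28 in the latter. Other tests also called miRNAs of low level. The likelihood ratio test added 22 calls, among them *bta-miR-1249* and *bta-miR-2431-3p*, both at 0 in all 3 EX libraries.

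**Figure D1:**
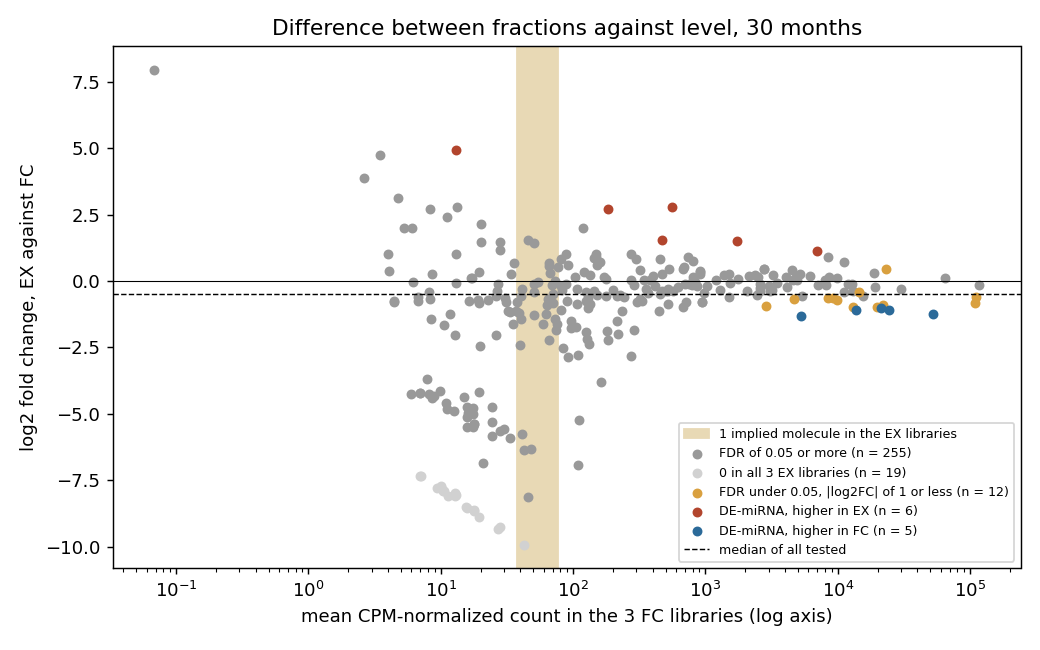
Log2 fold change of EX against FC (vertical axis, TMM-scaled fit) against the mean CPM-normalized count of the 3 FC libraries (horizontal log axis) for 297 tested miRNAs, without the 3 rows that stand apart. The shaded band spans 37.9 to 76.7 CPM, the worth of 1 implied molecule in the EX libraries, and 10 of the 11 coloured DE-miRNAs lie to its right. The 19 miRNAs at 0 in all 3 EX libraries form the pale band at the lower left, where the fitted value depends on the prior count.

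Among the miRNAs higher in EX, 2 candidates stood out. *candidate-miR-40* held 3978, 7173 and 3490 CPM in EX and 431, 761 and 481 CPM in FC, a fitted 6.97-fold difference (log2 fold change 2.80 ± 0.14, FDR 0.000194). *candidate-miR-38* held 1401, 1980.1 and 1160 CPM in EX and 169, 219 and 167 CPM in FC, which is 6.54-fold (log2 fold change 2.71 ± 0.21, FDR 0.00101). For both, the lowest EX library lay above the highest FC library by a wide margin, and plasma sample 2 was the highest in each fraction. The FC counts of both are among the shifted rows that were restored from the CPM values. Both sequences are 18 bases long, the shortest length among the tested miRNAs. They were also higher in EX at the earlier ages, at lower levels: *candidate-miR-40* averaged 385 CPM in EX and 25.9 CPM in FC at 20 months, and 479 and 33.8 CPM at 25 months.

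*bta-miR-12034* had the largest fitted fold change among the DE-miRNAs outside the 3 rows. It held 158, 571 and 874 CPM in EX and 5.13, 19.6 and 14.5 CPM in FC (log2 fold change 4.93 ± 0.59, FDR 0.00432). Its EX values spread over a wide range, and it lost the call without plasma sample 3. At 25 months it averaged 657 CPM in EX and 11.6 CPM in FC. At 20 months its means were 26.5 and 16.7 CPM. Of its 19 bases 89.5% are G or C, the highest share among the DE-miRNAs.

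*bta-miR-320a*, whose precursor is known to bypass the nuclear cut by Drosha, held 6178, 7369.9 and 4869 CPM in EX and 1751, 1634 and 1819 CPM in FC, or 2.84-fold more in EX (log2 fold change 1.51 ± 0.17, FDR 0.00306). The FC libraries lay close together, and every EX library was above them. *bta-miR-193a-5p* held 1284, 2322 and 1612 CPM in EX and 415, 418 and 585 CPM in FC (log2 fold change 1.55 ± 0.25, FDR 0.0141). *bta-miR-126-3p*, made by endothelial cells and also held by platelets, stood at 18365, 13608 and 22028 CPM in EX and 5919.6, 4466 and 10427 CPM in FC (log2 fold change 1.14 ± 0.14, FDR 0.00487). The lowest EX library was above the highest FC library for each of these 3 miRNAs, and plasma sample 3 was the highest in both fractions for *bta-miR-126-3p*. All 3 lost the call without plasma sample 2, which leaves 2 pairs, and *bta-miR-193a-5p* also without plasma sample 3. Without the block of plasma sample *bta-miR-126-3p* lost the call too (FDR 0.131).

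The DE-miRNA higher in FC with the smallest FDR outside the 3 rows was *bta-miR-223*, the myeloid miRNA that restrains granulocyte production. It stood at 59516, 49492 and 48799 CPM in FC and 29918, 25337 and 26626 CPM in EX, 2.37-fold more in FC (log2 fold change −1.24 ± 0.08, FDR 0.000462). *bta-miR-215*, which shares its seed with *bta-miR-192* and is expressed with it in gut epithelium, held 23875, 25987 and 23602 CPM in FC and 13307, 15139 and 13983 CPM in EX (log2 fold change −1.09 ± 0.08, FDR 0.000873). *bta-miR-143*, a miRNA of smooth muscle, held 15035, 13599 and 12812 CPM in FC and 8809, 8573 and 6842 CPM in EX (log2 fold change −1.08 ± 0.09, FDR 0.00139). The libraries of a fraction lay close together for these 3 miRNAs, with no overlap between fractions.

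*bta-miR-30e-5p* of the miR-30 family held 23264, 20690.5 and 19568 CPM in FC and 13889.8, 11452 and 12825 CPM in EX (log2 fold change −1.03 ± 0.09, FDR 0.00139). *bta-miR-148b*, whose family targets the DNA methyltransferase DNMT1, held 6297, 4372 and 5139 CPM in FC and 2824, 2767 and 2219 CPM in EX (log2 fold change −1.31 ± 0.14, FDR 0.00282). Neither overlapped between fractions. With library totals only, *bta-miR-223*, *bta-miR-215*, *bta-miR-143* and *bta-miR-30e-5p* kept an FDR below 0.05 but fell under the fold threshold, at log2 fold changes of −0.94, −0.79, −0.78 and −0.74. Without plasma sample 2, *bta-miR-215*, *bta-miR-143* and *bta-miR-30e-5p* lost the call. The CPM ranges of the 2 fractions were apart for all 13 DE-miRNAs, and over all tested miRNAs they were apart with EX above FC in 45 (15.0%) and with FC above EX in 47 (15.7%).

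**Figure D2:**
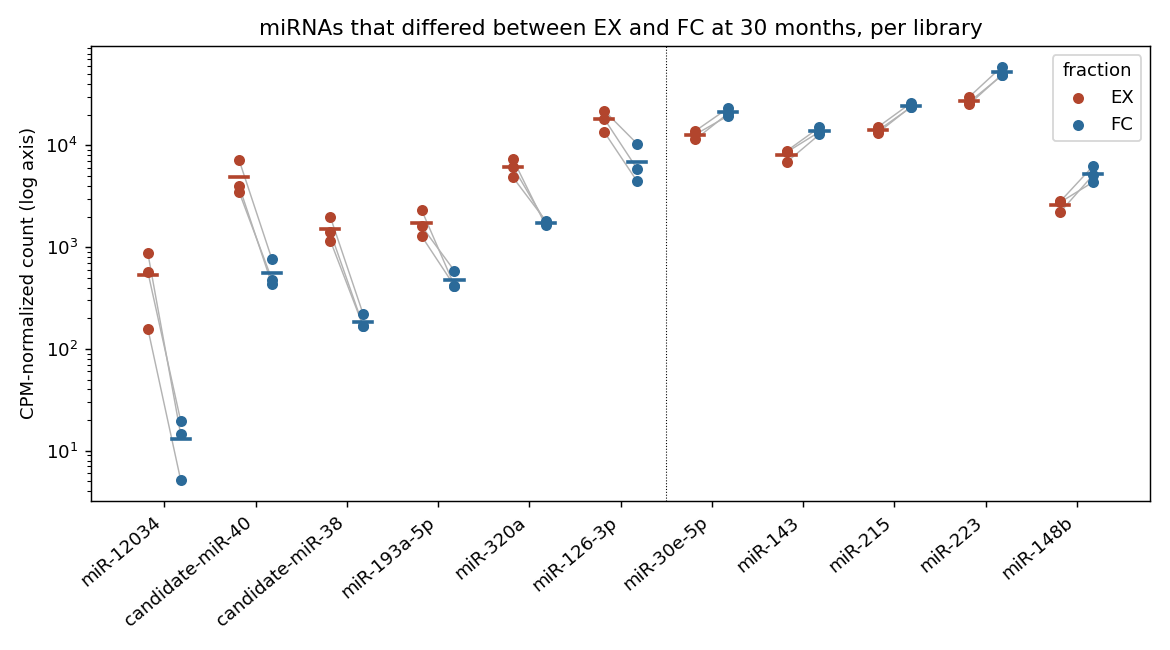
CPM-normalized counts (log axis) of the 11 DE-miRNAs outside the 3 rows, with 1 point per library, a bar at the mean of each fraction and a grey line joining the 2 fractions of a plasma sample. The 6 miRNAs left of the dotted line were higher in EX and the 5 to its right higher in FC, and in each the 3 EX points do not overlap the 3 FC points.

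A further 12 miRNAs passed the FDR with a smaller fold change, 11 of them higher in FC. *bta-miR-192* held 92619, 123869 and 111051 CPM in FC and 63472, 84194 and 80843 CPM in EX (log2 fold change −0.82 ± 0.07, FDR 0.00139), without overlap. *bta-miR-30d* held 20731, 20791 and 18141 CPM in FC and 12015, 13284 and 11802 CPM in EX (log2 fold change −0.98 ± 0.08, FDR 0.00133), also without overlap. *bta-miR-142-5p*, found in all blood lineages, held 26148, 20119 and 20216 CPM in FC and 17763, 10727 and 15804 CPM in EX (log2 fold change −0.91 ± 0.13, FDR 0.00907). For *bta-miR-21-5p* the ranges overlapped between fractions, with 95829, 141933 and 93752 CPM in FC and 70027, 123854 and 75954 CPM in EX, yet FC was higher within each plasma sample (log2 fold change −0.62 ± 0.08, FDR 0.00487). The others higher in FC were *bta-miR-148a*, *-126-5p*, *-30a-5p*, *-186*, *-141*, *-26b* and *-425-5p*, with log2 fold changes from −0.996 (*bta-miR-148a*) to −0.42 (*bta-miR-26b*). The 1 higher in EX was *bta-miR-486*, abundant in red cells, with 46216, 28599 and 40868 CPM in EX and 28415, 17560.4 and 23023 CPM in FC (log2 fold change 0.45 ± 0.08, FDR 0.0224). Without the block of plasma sample, *bta-miR-192*, *bta-miR-21-5p* and *bta-miR-486* did not pass the FDR (0.102, 0.376 and 0.376). *bta-miR-486* also missed it without each single plasma sample (0.0997 to 0.324) and with TMMwsp scaling (0.0959). *bta-miR-21-5p* missed it without plasma sample 2 (0.163), without plasma sample 3 (0.0577) and with library totals (0.0651), and *bta-miR-192* without plasma sample 2 (0.0926). Under all 4 scalings, 17 of the 25 miRNAs passed the FDR.

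The 2 arms of the miR-126 precursor went opposite ways. *bta-miR-126-5p* held 6376, 4540.3 and 8942 CPM in EX and 7930.4, 5836 and 11729 CPM in FC (log2 fold change −0.65 ± 0.09, FDR 0.00834), while *bta-miR-126-3p* was higher in EX. With library totals the -5p arm missed the FDR (log2 fold change −0.36, FDR 0.0629). The ratio of -3p to -5p counts, which does not depend on the scaling, reached 2.88, 3.00 and 2.46 in EX (2.78 ± 0.280) and 0.746, 0.765 and 0.889 in FC (0.800 ± 0.0774, mean ± SD, n = 3). Every EX library thus had more -3p than -5p counts and every FC library fewer. The log2 ratio differed between the fractions of a plasma sample by 1.80 ± 0.28 (mean ± SD, n = 3).

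The ratio was also higher in EX in the 6 plasma samples of 20 and 25 months, at 1.45 to 2.82 in EX and 0.895 to 1.11 in FC. Both arms passed the filter for 21 precursors, and both had counts in all 6 libraries for 9. The ratio did not overlap between fractions in 2 of these 9, miR-126 and miR-423. For miR-423 the libraries gave 0.0669, 0.0874 and 0.135 in EX and 0.184, 0.227 and 0.151 in FC. *bta-miR-423-5p* itself did not pass the FDR (log2 fold change 0.91 ± 0.21, FDR 0.0583), nor did *bta-miR-423-3p* (log2 fold change −0.09 ± 0.17, FDR 0.796). The -5p arm was called with library totals, with limma, without plasma sample 3 and with the filters at 1 implied molecule. For miR-142 the -3p arm stood far below the -5p arm in both fractions, with ratios of 0.0309 to 0.0384 in EX and 0.0189 to 0.0316 in FC. *bta-miR-21-3p*, at 0 in 2 EX libraries and 48.3 CPM in the other, held 124, 104 and 100.4 CPM in FC.

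**Figure D3:**
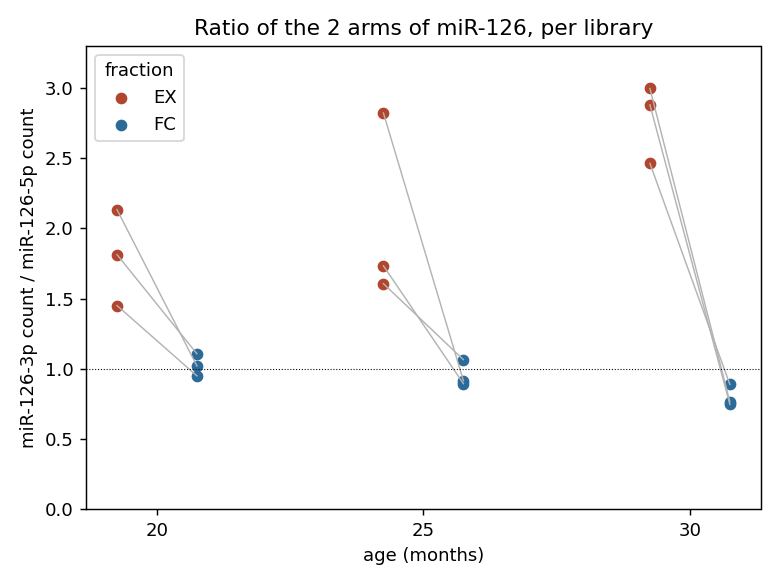
Ratio of *bta-miR-126-3p* to *bta-miR-126-5p* counts (vertical axis, linear) in each EX and FC library at 20, 25 and 30 months, with a grey line joining the fractions of a plasma sample and a dotted line at 1. The EX point lies above the FC point in all 9 plasma samples, and the 30 months libraries show the EX values of 2.46 to 3.00 and FC values below 1.

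Among the lists of miRNAs known from blood cells, the share of the myeloid list was lower in EX and that of the red cell list higher in EX within each plasma sample, while few members were called. A larger number of releasing cells and more release per cell cannot be told apart in plasma. Shares are sums of CPM, without TMM. In each list below the members called are set against 4.33% of all tested. The myeloid list held 3.11, 2.66 and 2.73% of the EX libraries and 6.03, 5.11 and 4.95% of the FC libraries, so the share was lower in EX in all 3 plasma samples. Nearly all of it was *bta-miR-223*. Of its 3 tested members 1, *bta-miR-223*, was called, and the median log2 fold change was −0.46, near that of all tested (−0.48). *bta-miR-146a* (log2 fold change −0.46 ± 0.27, FDR 0.397) and *bta-miR-146b* (log2 fold change 0.82 ± 0.78, FDR 0.610), both induced in inflammation, did not pass. The list of all blood lineages, which holds both arms of miR-142, had 1.84, 1.11 and 1.63% in EX and 2.70, 2.05 and 2.07% in FC.

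The red cell list held 5.41, 3.48 and 4.95% of the EX libraries and 3.44, 2.15 and 2.74% of the FC libraries, higher in EX in all 3 plasma samples. None of its 3 members was a DE-miRNA, and *bta-miR-486* alone passed the FDR, under the settings given above. *bta-miR-451*, the erythroid miRNA cut by Argonaute in place of Dicer, held 7592, 5882 and 8502 CPM in EX and 5717, 3757 and 4070 CPM in FC (log2 fold change 0.41 ± 0.14, FDR 0.191), and *bta-miR-144* of the same gene cluster averaged 217 ± 110.5 CPM (SD, n = 3) in EX against 244 ± 38.1 CPM in FC and did not pass (log2 fold change −0.61 ± 0.64, FDR 0.626). The lymphocyte list, without the row of *bta-miR-181b*, held 2.43, 1.52 and 2.88% in EX and 2.87, 1.58 and 1.66% in FC, with 0 of 4 tested members passing the FDR. *bta-miR-150*, its most abundant member, stood at 15283, 7248 and 17119.5 CPM in EX and 18749.9, 7188 and 9629 CPM in FC (log2 fold change −0.12 ± 0.21, FDR 0.789). All 4 members lay below 0 with TMM and above 0 with library totals, so their direction depends on the scaling. At the earlier ages *bta-miR-150* was far more abundant in both fractions, with means of 144314 and 163828 CPM in EX and 74071 and 111568 CPM in FC at 20 and 25 months. With the row as deposited the list had 1 called member of 5 tested.

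The vessel wall and platelet list held 3.38, 2.71 and 3.83% of the EX libraries and 2.90, 2.40 and 3.51% of the FC libraries, higher in EX in all 3 plasma samples by CPM but by less than the ratio of the TMM factors, so the direction turns with the scaling. Its members split. *bta-miR-126-3p* was higher in EX and *bta-miR-126-5p* and *bta-miR-143* higher in FC. *bta-miR-145*, transcribed together with *bta-miR-143*, held 271, 412 and 456 CPM in EX and 149, 129.7 and 166 CPM in FC, but did not pass (log2 fold change 1.03 ± 0.47, FDR 0.340). The CPM ranges of *bta-miR-145* were apart with EX above FC, and those of *bta-miR-143* with FC above EX.

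Among the lists of tissues, that of gut and liver was lower in EX. Without the 3 rows it consists of *bta-miR-192* and *bta-miR-215*, which made up 7.68, 9.93 and 9.48% of the EX libraries and 11.6, 15.0 and 13.5% of the FC libraries. With the 3 rows as deposited the list had 2 called members of 4 tested, the other being *bta-miR-194*. The hepatocyte miRNA *bta-miR-122* differed more between plasma samples than between fractions, with 35472, 108600 and 100406 CPM in EX and 23010.1, 74438 and 97366 CPM in FC (log2 fold change 0.11 ± 0.14, FDR 0.708). Plasma sample 1 was the lowest in both fractions. The other hepatocyte member, *bta-miR-885*, did not pass the filter.

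The epithelial list held 1.55 ± 0.238% in EX and 1.56 ± 0.459% in FC, and 1 of 7 tested members passed the FDR, *bta-miR-141* (higher in FC, log2 fold change −0.63 ± 0.10, FDR 0.0149), against 8.33% of all tested. It missed the FDR with library totals (0.103). The endocrine list held 0.495, 0.393 and 0.547% in EX and 0.294, 0.227 and 0.359% in FC. Most of it was *bta-miR-375* of islet and gut endocrine cells, with 4812, 3726 and 5376 CPM in EX and 2773, 2128 and 3453 CPM in FC (log2 fold change 0.45 ± 0.11, FDR 0.0662). Its CPM ranges were apart, but it missed the FDR with TMM. It passed with library totals (FDR 0.00710). The muscle list was near the limit of the EX libraries, with shares of 0.00484 to 0.0561% in EX and 0.0199 to 0.0342% in FC, and 0 of 5 tested members passed the FDR. *bta-miR-206* of skeletal muscle was at 253, 0 and 189 CPM in EX and 38.0, 69.2 and 102 CPM in FC.

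**Figure D4:**
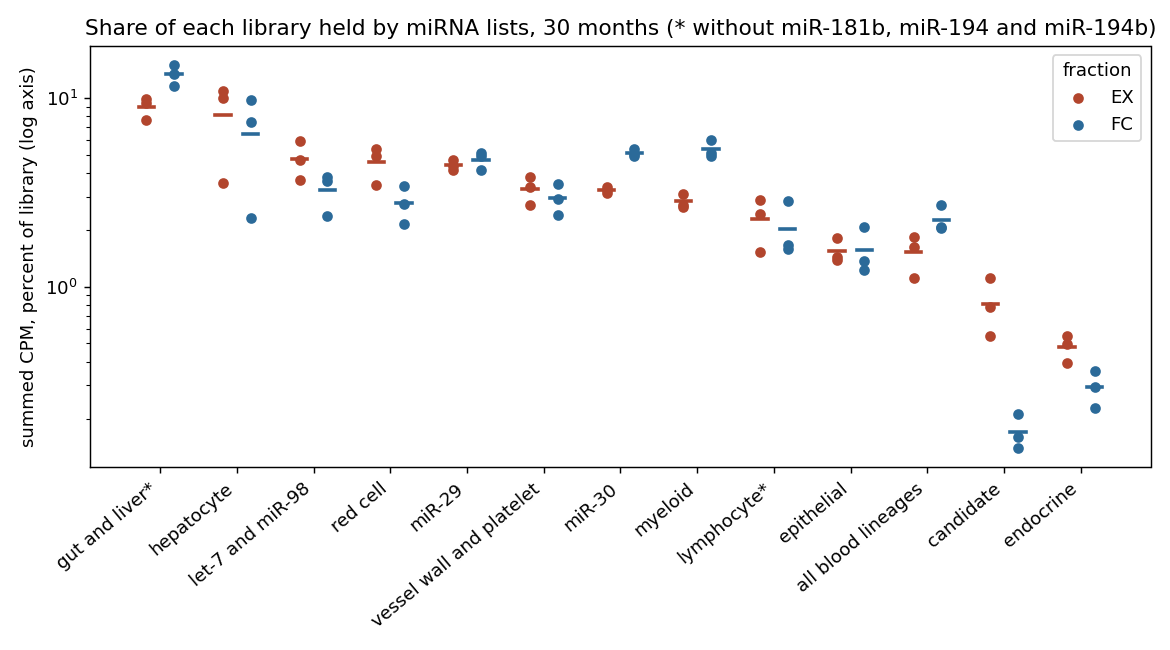
Summed CPM of the members of 13 miRNA lists as a percent of each library (log axis), with 1 point per EX or FC library of 30 months and a bar at the mean. The myeloid, miR-30 and gut and liver points lie higher in FC, and the red cell and candidate points lie higher in EX, within each plasma sample. Lists marked with an asterisk leave out the 3 rows.

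Families with a common seed were also compared. All 6 tested members of the miR-30 family had a log2 fold change below 0, under each of the 4 scalings, with a median of −1.01. Over all 300 tested miRNAs 207 lay below 0 with TMM and 174 with library totals. The FDR was passed by 3 members, *bta-miR-30e-5p*, *-30d* and *-30a-5p*, against 8.33% of all tested. These 3 are abundant, and of 78 tested miRNAs with a mean of at least 1000 CPM 23 passed the FDR. In the family 1 of the 6 was a DE-miRNA, against 4.33% of all tested. The family held 3.14, 3.24 and 3.37% of the EX libraries and 5.09, 5.39 and 4.91% of the FC libraries. *bta-miR-30b-5p*, which the study followed further, was low in EX, with 96.3, 53.5 and 128 CPM in EX and 126, 103 and 171 CPM in FC (log2 fold change −0.88 ± 0.77, FDR 0.571). Of the seed group of *bta-miR-148a*, *-148b* and *-152*, all 3 lay below 0 and the first 2 passed the FDR, which 8.33% of all tested passed.

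The let-7 family, which represses growth genes in differentiated cells, held 5.90, 4.72 and 3.68% in EX and 3.82, 2.36 and 3.64% in FC. Of its 9 tested members 0 passed the FDR in the main fit. *bta-let-7e* was called with library totals, the likelihood ratio test, DESeq2 and limma, but not with RLE or TMMwsp scaling. *bta-let-7b* stood at 26726, 23943 and 16212 CPM in EX and 12403, 7793 and 13436 CPM in FC (log2 fold change 0.70 ± 0.25, FDR 0.204), and *bta-let-7e* at 489, 403 and 609 CPM in EX and 94.6, 52.6 and 208 CPM in FC (log2 fold change 1.99 ± 0.50, FDR 0.0830). Their CPM ranges were apart, but with TMM *bta-let-7b* was higher in EX in 2 of the 3 plasma samples. The miR-29 family had 0 of 4 tested members past the FDR and all 4 below 0, where 207 of all 300 tested also lay. *bta-miR-29a* stood at 29904, 28805 and 31406 CPM in EX and 31592, 31556 and 27172 CPM in FC. Of the miR-17-92 cluster, a regulator of cell proliferation, 0 of 7 tested members passed. *bta-miR-92a* led it with 6380.1, 6078 and 7151 CPM in EX and 5973, 3902 and 4728 CPM in FC.

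The 4 miRNAs described in human plasma as carried mostly by Argonaute outside vesicles, *bta-miR-16a*, *-16b*, *-92a* and *-122*, made up 23.2, 22.4 and 24.5% of the EX libraries and 19.4, 17.4 and 23.1% of the FC libraries. None passed the FDR, and their log2 fold changes lay between −0.14 and 0.15 with TMM and all above 0 with library totals. *bta-miR-16b* held 172354, 96040.1 and 124712 CPM in EX and 149877, 84579 and 117513 CPM in FC (log2 fold change −0.14 ± 0.08, FDR 0.39).

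The candidate miRNAs made up 0.777, 1.12 and 0.551% of EX and 0.140, 0.212 and 0.159% of FC, mostly *candidate-miR-40* and *-38*. The table lists 41 candidates, of which 15 were tested and 2 called, and the median log2 fold change of the 15 was −0.78. The DLK1-DIO3 cluster, an imprinted group of miRNAs, had 0 called of 13 tested of 50 in the table, and 0.0819 ± 0.0129% of EX against 0.0529 ± 0.00643% of FC. *bta-miR-127*, its most abundant member over the 6 libraries, stood at 153, 83.7 and 216 CPM in EX and 111, 125 and 76.5 CPM in FC. In EX alone *bta-miR-432* had the higher mean, 170 against 151 CPM. The miR-2284 and miR-2285 family of ruminants had 0 called of 19 tested of 148. Its leading member *bta-miR-2284x* stood at 4066, 3271 and 2832 CPM in EX and 2880.4, 2245 and 2324 CPM in FC. The median of the tested members was −1.49, and most of them were below 1 implied EX molecule.

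Of 4 miRNAs that the study related to a carcass trait, *bta-miR-222*, *-150*, *-423-3p* and *-30b-5p*, and its control *bta-miR-93*, 0 of 5 passed the FDR at 30 months. *bta-miR-423-3p* stood at 1491, 1922 and 1966 CPM in EX and 1703, 1504 and 1417 CPM in FC. *bta-miR-222* held 384, 846 and 258 CPM in EX and 388, 498 and 352 CPM in FC (log2 fold change −0.20 ± 0.38, FDR 0.791). The control *bta-miR-93* held 26671, 16152 and 17308 CPM in EX and 22640, 14728 and 19779 CPM in FC (log2 fold change −0.24 ± 0.12, FDR 0.349). The ranges of all 5 overlapped between fractions, and the direction of 4 of them turned with library totals, all but *bta-miR-30b-5p*.

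Some miRNAs were found in 1 fraction only. Outside the 3 rows, those with the highest FC means among the 188 at 0 in all EX libraries were *bta-miR-1249*, at 41.7, 56.4 and 30.8 CPM in FC, and *bta-miR-2431-3p*, at 23.0, 31.5 and 29.2 CPM. Each of these FC values lay below the worth of 1 implied molecule in the EX library of the same plasma sample, so their absence from EX could not be shown at this depth and no fold is given. Neither passed the FDR in the main fit, though both were called with the likelihood ratio test, DESeq2 and limma. In the other direction 14 miRNAs had a count in EX and 0 in all FC libraries. *candidate-miR-21* was the highest outside the 3 rows, with 0, 87.8 and 33.2 CPM in EX, followed by *bta-miR-383* with 0, 75.7 and 0 CPM. Their non-zero values amount to about 1 implied molecule, and neither was tested.

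The number of miRNAs present, with a count above 0 among the 300 tested, came to 241, 225 and 253 in EX and 297, 293 and 292 in FC. EX had 54.3 fewer on average (SD 14.6, n = 3 plasma samples), in all 3 pairs, with p = 0.25 in an exact two-sided sign-flip permutation test, the smallest p that 3 pairs allow. Part of this difference is set by the filter, which 22 of the 300 passed through FC alone and 2 through EX alone. Over all 1071 miRNAs of the table, which no filter touches, 284, 258 and 296 were present in EX and 452, 398 and 440 in FC. In each plasma sample 45 to 74 miRNAs were present in FC only, 2 to 6 in EX only and 219 to 247 in both. Drawn down to the total count of the EX library of the same plasma, the FC libraries would hold 296, 289.7 and 292 miRNAs. Drawn down to the implied molecule number of that EX library, they would hold 222, 193 and 222, while 222, 203 and 231 reached at least 1 implied molecule in EX. The mean difference was then 6.47 in favour of EX (SD 5.36). The lower number in EX remained at equal total counts, and it was not found at equal implied molecules, whose numbers are rough estimates.

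**Figure D5:**
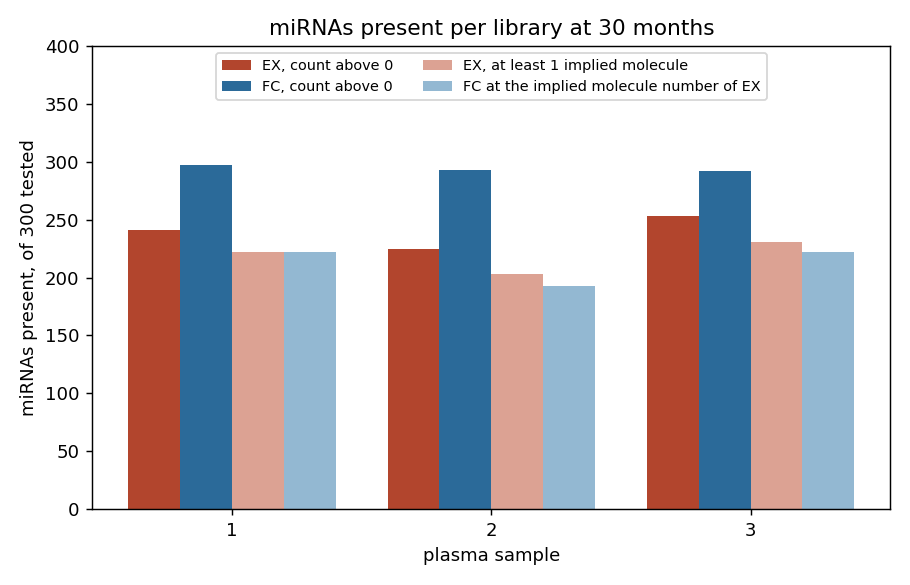
Number of the 300 tested miRNAs present per plasma sample of 30 months: with a count above 0 in EX and in FC (dark bars), with at least 1 implied molecule in EX (pale red) and expected in FC at the implied molecule number of the EX library (pale blue). The dark FC bars stand at 292 to 297 and the dark EX bars at 225 to 253, while the pale bars of a plasma sample lie close together.

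Whether the EX-FC difference at 30 months departs from that of the earlier ages was tested in 1 fit of all 18 libraries, with the 9 plasma samples as blocks and miRNAs above 5 CPM in at least 3 libraries. The contrast was the log2 fold change of EX against FC at 30 months minus the mean of those at 20 and 25 months. Over all 392 miRNAs the median of this contrast was −0.59, so the values as a whole lay towards FC. At an FDR below 0.05, 56 of 392 miRNAs differed (14.3%), 11 towards EX and 45 towards FC at 30 months. Of the latter, 17 were at 0 in all 3 EX libraries of 30 months and 26 had counts in all 3. This count was not stable when replicates were left out, which also removes 3 of the 9 plasma samples: without replicate 3 of every age 9 passed, and without replicate 1 or replicate 2 of every age 0 passed in edgeR, with 79 and 85 miRNAs at an unadjusted p below 0.05. It was 89 with the likelihood ratio test and 87 with DESeq2. With limma voom, which weighted libraries by the spread of their group, it was 19, with 2 towards EX and 17 towards FC. The EX libraries of 30 months also had the widest spread of any group, with a biological coefficient of variation of 1.24 against 0.453 in FC of the same age and 0.602 in EX of 20 months. The limma voom fit allowed for this spread but also used another test, so the part of the spread alone cannot be told apart. The part of the molecule number in this count was not tested.

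*bta-miR-223* had the smallest FDR of this contrast. Its EX-FC log2 fold change was −0.56, −0.38 and −1.36 at 20, 25 and 30 months, a difference of −0.89 ± 0.09 (FDR 0.000872). *bta-miR-30d* and *bta-miR-30e-5p* moved the same way, by −0.76 ± 0.09 (FDR 0.00231) and −0.67 ± 0.10 (FDR 0.00512). The median of all 392 miRNAs was −0.59. *bta-miR-1249* and *bta-miR-184* were at 0 in the EX libraries of 30 months, after means of 59.6 and 336 CPM in EX at 25 months. Towards EX, *bta-miR-320a* changed from 0.32 and 0.30 at 20 and 25 months to 1.39 at 30 months in this fit, a difference of 1.08 ± 0.16 (FDR 0.00512). *bta-miR-193a-5p* differed by 1.13 ± 0.26 (FDR 0.0232), and its mean EX level was 306 CPM at 25 months and 1739 CPM at 30 months. *bta-miR-1246*, described in human cells as a fragment of U2 small nuclear RNA, had log2 fold changes of −1.53, −1.16 and 0.11 at the 3 ages, a difference of 1.46 ± 0.36 (FDR 0.0303). *bta-miR-375* (0.01, −0.38 and 0.33) and *bta-let-7f* (−0.90, −0.22 and 0.08) were the other 2 of the 5 towards EX with the smallest FDR. *candidate-miR-40* was called towards FC, since its difference fell from 3.89 and 3.90 to 2.68 while its level rose in both fractions, a difference of −1.21 ± 0.33 (FDR 0.0402). *bta-miR-126-3p*, *bta-miR-215*, *bta-miR-148b*, *bta-miR-12034* and *candidate-miR-38* did not pass this contrast.

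The direction of the miRNAs past the FDR was compared with that at the earlier ages. Of the 23 miRNAs past the FDR at 30 months outside the 3 rows, 23 had the same sign at 20 months and 22 at 25 months. Over all 297 tested miRNAs that entered the fit of ages, 192 and 193 did so. The libraries of the 3 ages are separate, and the steers are the same.

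In sequence, the miRNAs higher in each fraction varied among themselves. Without the 3 rows, the 6 DE-miRNAs higher in EX were 18 to 22 bases long (median 20) and the 5 higher in FC 22 to 24 bases (median 22), with a median of 22 bases over all 297 tested. The G + C share ranged from 16.7% (*candidate-miR-38*) to 89.5% (*bta-miR-12034*) in the former and from 36.4% to 50% in the latter. A first base of U was found in 1 of 6 higher in EX, 4 of 5 higher in FC and 47.8% of all tested. Among the miRNAs past the FDR it was found in 2 of 7 higher in EX and 10 of 16 higher in FC. Of the 76 tested miRNAs with a mean of at least 1000 CPM, 61.8% began with U. The 4-base motifs GGAG and CCCU and the motif CGGGAG, described for the sorting of miRNAs into exosomes, were searched on the miRNA strand only. GGAG was found in 1 of the 6 higher in EX (*bta-miR-12034*) and 8.42% of all tested, CCCU in 0 of the 11 and 10.8%, and CGGGAG, which contains GGAG, in 0 of the 11 and 0.673%. These counts are too few for any comparison.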

How the data were processed

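Small RNA libraries of the 6 plasma fractions of 30 months (3 EX, 3 FC) were analysed, and the other 12 libraries entered the comparison of ages only. Per the study's methods, the authors trimmed reads with cutadapt 5.0 and Trimmomatic 0.39, checked them with FastQC 0.12.1, and mapped and counted miRNAs with miRDeep2, whose deposited expected counts, estimated because reads that match several miRNAs are shared, need not be whole. The authors deposited the same table as CPM, scaled to the library total without TMM. In the count table the lower rows of 4 FC libraries, including all 3 of 30 months, are shifted against their names, and these rows were restored from the deposited CPM values. Counts were rounded and fitted in edgeR 4.0.16 (quasi-likelihood, TMM, plasma sample as block) with FDR from the Benjamini-Hochberg method. Log2 fold changes come from that fit, standard errors from its F statistic, and levels are deposited CPM values.

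DE-miRNAs had an FDR below 0.05 and a |log2 fold change| above 1. EX and FC libraries with the same replicate number were taken as 1 plasma sample, which the labels and methods do not state. As a check, the deviations of the libraries from their group means were correlated within each number, at 0.0988, 0.0238 and 0.0920 for plasma samples 1, 2 and 3, against −0.0963 to −0.000286 between different numbers, where centring on group means alone lowers the values. None of the 3 was over 0.1, so the data do not settle the pairing. The plasma of 30 months came from 3 steers. Named were the DE-miRNAs, the 10 with the highest mean CPM, called and most abundant members of each list, the leading miRNAs at 0 in 1 fraction, 4 miRNAs the study related to a carcass trait and its control, the leading miRNAs of the age contrast and the 3 most abundant arm pairs. Further miRNAs were named after their values were seen. The libraries, lists and tests were chosen with earlier results of these data known. The depth differed between fractions, and intervals from 3 counts cover counting error only. Libraries of a fraction differed by a chi-square per degree of freedom of 196 or more, which treats PCR copies as independent and so overstates the difference. The scripts were tested on simulated data with the same spread in all libraries, so that test does not bear on the wider spread of EX at 30 months. Alternatives were other scalings (RLE, TMMwsp, library totals), filters, tests (likelihood ratio test, DESeq2 1.42.0, limma 3.58.1), no block, leaving out each plasma sample, the table as deposited, implied molecules and the 3 rows left out or reassigned. R 4.3.3 and Python 3.11.15 were used.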

Additional observations from a re-analysis of the deposited data

Results flagged for a closer look

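The EX-FC difference of 30 months departed from that of 20 and 25 months for 56 of 392 miRNAs by the interaction contrast in edgeR (FDR below 0.05). Towards EX, the log2 difference of differences was 1.08 for *bta-miR-320a*, 1.13 for *bta-miR-193a-5p*, 0.52 for *bta-miR-375*, 0.64 for *bta-let-7f* and 1.46 for *bta-miR-1246*. Towards FC, it was −0.89 for *bta-miR-223*, −0.76 for *bta-miR-30d* and −0.67 for *bta-miR-30e-5p*, against a median of −0.59 over all 392. *bta-miR-1249* (FDR 0.00324) and *bta-miR-184* (FDR 0.00512) passed with 0 counts in all 3 EX libraries of 30 months, so their size is not given. Each library group held 3 samples, so no sample was examined as an outlier of its group. Without replicate 1 or replicate 2 of every age no miRNA passed this contrast in edgeR (79 and 85 at an unadjusted p below 0.05), and without replicate 3 of every age 9 did.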

How the results depend on the processing

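The count of 13 DE-miRNAs was between 11 and 15 with RLE, TMMwsp or library totals, with a filter at 1 CPM, with none, or at the worth of 1 implied molecule, and with the 3 rows left out or reassigned (the filters at 1 molecule and the 3 rows were chosen after seeing the data). With the filters at 1 implied molecule *bta-miR-143*, *bta-miR-215* and *bta-miR-30e-5p* lost the call and the split of EX to FC was 10 to 3 and 9 to 3, and *bta-miR-30e-5p* also lost it with RLE. It was 20 with more than 5 CPM in all 6 libraries, 35 with the likelihood ratio test, 33 with DESeq2, 35 and 34 with limma on log2(CPM + 1) and log2(CPM + 5), 43 in a fit of all 18 libraries, 29 with the rows as deposited before restoring and 22 on implied molecules. It was 7 to 15 without single plasma samples, with 7 without plasma sample 2. Without the replicate block it was 35, and the count of the age contrast fell from 56 to 29. With the 3 rows reassigned in the 7 EX libraries (row of *bta-miR-181b* read as *bta-miR-194*, row of *bta-miR-194b* as *bta-miR-181b*, row of *bta-miR-194* as *bta-miR-194b*), *bta-miR-194* had a log2 fold change of −0.96 (FDR 0.00730) and *bta-miR-181b* of 0.26 (FDR 0.876). The age contrast gave 89 with the likelihood ratio test, 87 with DESeq2 and 19 with limma voom weighted by the spread of each group. It gave 20 with no filter and 0 to 9 without single replicates. The cause was not tested. The EX minus FC number of miRNAs present was −150.7 over all miRNAs of the table and 6.47 at equal implied molecules.

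Of the log2 fold changes of named miRNAs, 24 values turned sign, none of them of a DE-miRNA. With library totals, and with limma at both pseudocounts, *bta-miR-150* was at 0.18, *bta-miR-16b* at 0.16, *bta-miR-222* at 0.10, *bta-miR-423-3p* at 0.21 and *bta-miR-93* at 0.059. With all 18 libraries *bta-miR-122* was at −0.00076. Without single plasma samples the ranges were −0.028 to 0.29 for *bta-miR-122*, −0.43 to 0.10 for *bta-miR-150*, −0.48 to 0.084 for *bta-miR-222* and −0.21 to 0.090 for *bta-miR-423-3p*. With filters at 1 implied molecule *bta-miR-423-3p* was at 0.019 and 0.011, and with the rows as deposited *bta-miR-93* was at 11.87. *bta-miR-148b*, *candidate-miR-38* and *candidate-miR-40* were called under all 21 alternatives, although with the rows as deposited the log2 fold changes of the last 2 were 11.30 and 16.45. The depth of EX limits what can be seen of miRNAs below 1 implied molecule.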
